A study of Mus musculus with 4 samples.

Results

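The genes described here are 9 mouse genes whose proteins set the inclusion of neuronal exons and microexons: Srrm3, Srrm4, Ptbp1, Ptbp2, Rbfox1, Rbfox2, Rbfox3, Nova1 and Nova2. They were chosen by symbol, as the rows of the deposited expression table with one of these names, 9 of 22667 genes. All splicing events that carry the same gene name were taken with them, 70 of 91595 events. Reads and splicing were measured by RNA-seq of polyA RNA from N2a, a mouse neuroblastoma line. Transfection for 48 h was with a control siRNA that targets no gene (siControl) or with siRNA that lowers Arglu1 (siArglu1). The authors describe the ARGLU1 protein as a coactivator of the glucocorticoid receptor and a regulator of splicing. The glucocorticoid dexamethasone (Dex, 100 nM) or its ethanol vehicle (Veh) was then given for 4 h. Each of the 4 groups is 1 library made from the pooled RNA of 3 cultures, so no group has replicates and no test between a pair of libraries is possible. The methods name a single siRNA sequence against Arglu1, in a single cell line. Elsewhere the authors report similar splicing changes with independent siRNAs against Arglu1.

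Neuronal exons are set by a small number of RNA-binding proteins that act on overlapping sets of transcripts. SRRM4 (nSR100) and its relative SRRM3 bind upstream of microexons and promote their inclusion. PTBP1 binds pyrimidine-rich sequence and represses neuronal exons in most cells, and its neuronal paralog PTBP2 replaces it as neurons form. RBFOX proteins bind GCAUG and NOVA proteins bind YCAY, and both promote or repress an exon depending on where they bind. These proteins also act on each other's transcripts: skipping of a 34-nt exon of Ptbp2, which PTBP1 promotes, gives a transcript with an early stop codon that is open to nonsense-mediated decay.

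Reads on genes lay between 66074574 and 86541444 per library, and edgeR's TMM factors were close to 1 (0.984 to 1.01). The targeted gene, Arglu1, had 10165 and 11825 reads in siControl and 2637 and 3254 in siArglu1, which left 26.3% of the siControl level in vehicle and 22.5% in Dex after scaling. Where values of a pair are given for siControl or siArglu1, Veh comes before Dex, and 4 values in a row keep the order siControl Veh, siControl Dex, siArglu1 Veh, siArglu1 Dex. Of 14 markers of sympathetic neuroblastoma, 11 had a level of at least 1 cRPKM in all 4 libraries, whereas Nefl and Nefm were at or near 0. The summed level of the 14 was 1647 and 1652 cRPKM in siControl against 2195 and 2146 in siArglu1, and 3 of the 11 were higher and 2 lower by the size rule for knockdown described below in each pair. The summed level of 8 glial markers was at most 2.17 cRPKM in any library. Of 8 markers of mesenchyme and smooth muscle, only Acta2 and Myl9 were above 1 in every library, and the summed level of the list was 8.83 and 8.88 cRPKM in siControl against 173 and 159 in siArglu1, while Col3a1 and Lum were at 0 or at most 0.01. Of the 5 mesenchyme markers compared, 2 were higher and 0 lower by the same rule in each pair. The summed levels of the neuroblastoma and the mesenchyme lists were thus higher in siArglu1, while only some of their markers were higher by the rule. The part of these lists in the values below was not tested.

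Across the 4 libraries the 9 genes spanned a wide range of abundance. Levels between genes are compared here as cRPKM, a measure of reads per kilobase that the authors corrected for mappability and for library size. Ptbp1, the general repressor of neuronal exons, was the most abundant, with 257 cRPKM in both siControl libraries and 216 and 233 in siArglu1, and 97.7% of the genes compared had a lower level in siControl Veh. Ptbp2 followed in siControl with 71.6 and 70.1 cRPKM in Veh and Dex, and was at 21.2 and 20.8 in siArglu1. Rbfox2 stood at 44.0 and 41.2 cRPKM in siControl and at 25.1 and 26.0 in siArglu1, which placed it above Ptbp2 in both siArglu1 libraries. Srrm3 lay between 9.34 and 11.35 cRPKM. Nova1, Srrm4 and Nova2 were between 7.51 and 8.06 cRPKM in the siControl libraries, where the range of Nova2 overlapped those of the other two, and Nova1 lay above Srrm4 in both. Rbfox1 was low, with 1.51 and 1.28 cRPKM in siControl and 0.88 and 0.84 in siArglu1. Rbfox3, which encodes the neuronal antigen NeuN, had 1 read in each library and a cRPKM of 0, and was under the minimum of 75 reads summed over the libraries that was set for any comparison. Thus 8 of the 9 genes were compared.

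**Figure D1:**
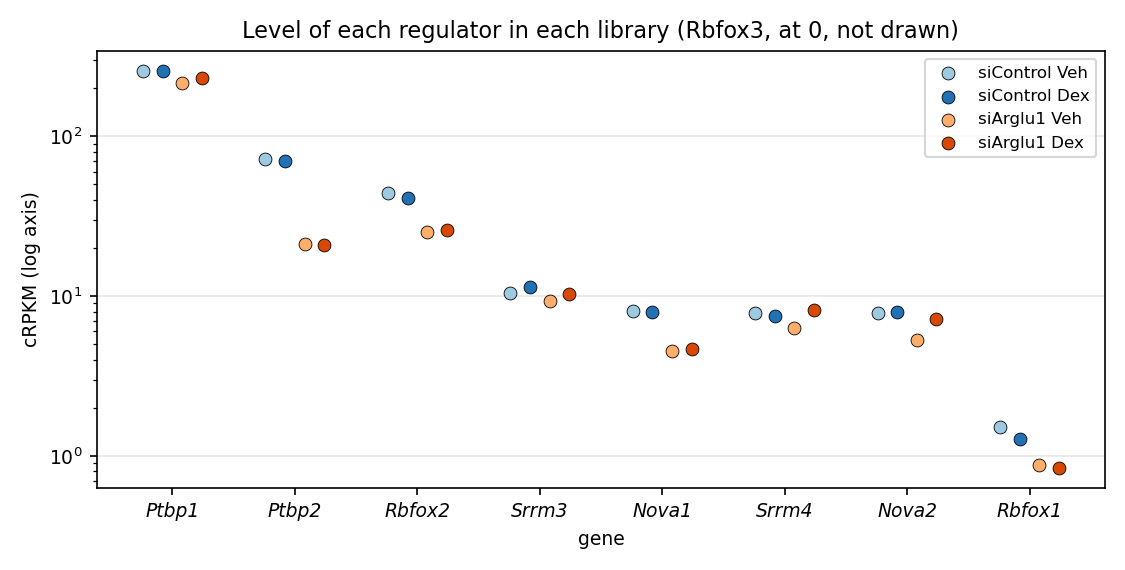
Level of each regulator in cRPKM (log axis) in the 4 libraries, 1 point per library and gene, ordered by the level in siControl Veh. Ptbp2 falls from 71.6 and 70.1 in siControl to 21.2 and 20.8 in siArglu1, and Ptbp1 stays between 216 and 257.

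The plot of levels by library shows the 2 points of siControl next to each other for every gene, and the siArglu1 points furthest below them for Ptbp2, followed by Nova1, Rbfox2 and Rbfox1. The question put to the pairs of libraries was which of the regulators changed with the loss of Arglu1 and which with the glucocorticoid. Ratios were taken as log2 of TMM-scaled CPM (counts scaled to a common library size) with a prior count of 1, and a gene was called for knockdown when its ratio was 0.81 or more above or below 0. This size rule is not a test. The 95% intervals are exact, follow from the read counts and hold no error other than counting error. In a bulk library, fewer cells that express a gene and less of its RNA per cell cannot be told apart.

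Knockdown lowered 1 of the 8 regulators past the size rule, and it was the same gene in the vehicle and in the Dex pair, which share no library. This was Ptbp2. Over all genes, 5.07% were lower by the rule in both pairs. By the same rule in the lower direction, 8.77% of the 12497 genes compared were called in vehicle and 5.93% in Dex. The share called in either direction was 15.8% and 12.1%. None of the 8 regulators was higher by the rule. All 8 ratios were below 0 in vehicle and 7 of 8 in Dex, with a median of -0.63 and -0.39, where the median over all genes compared was 0.0038 and 0.0031. Over all genes, longer transcripts had lower knockdown ratios (Spearman's rho of -0.398 in vehicle and -0.229 in Dex across 12497 genes, a description), and the mappable lengths of the regulators run from 3.06 kb for Ptbp1 to 8.74 kb for Nova2. For this reason the knockdown ratio of each regulator is also given with the trend on length removed, which was not done for the other ratios unless stated.

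**Figure D2:**
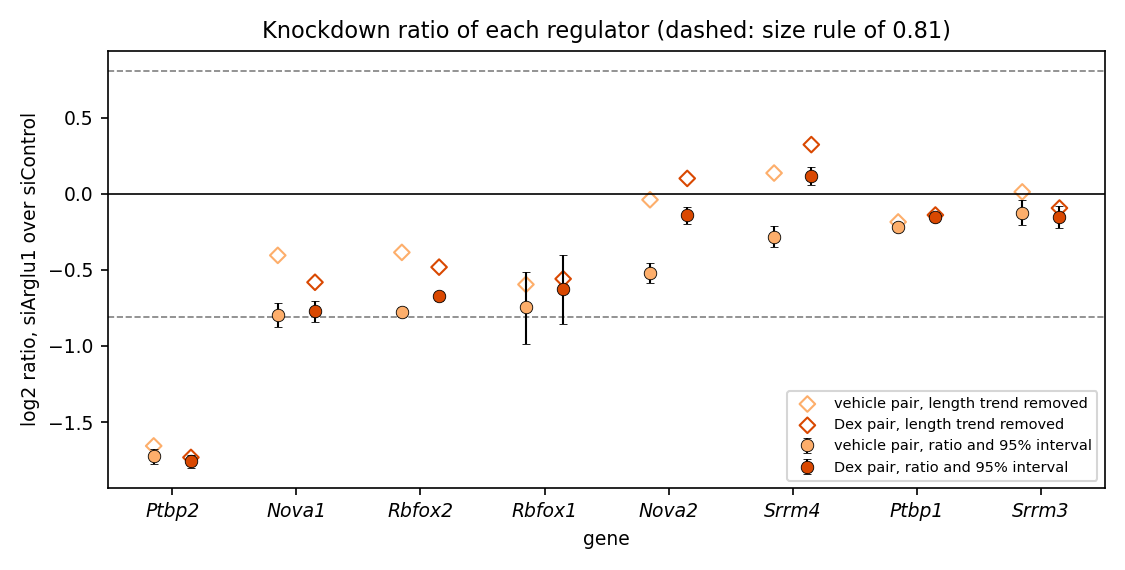
Log2 ratio of siArglu1 over siControl for the 8 regulators compared, in the vehicle pair and the Dex pair. Filled circles are the ratios with exact 95% intervals (counting error only), open diamonds the ratios after removal of the trend on transcript length, and dashed lines the size rule of 0.81. Ptbp2 alone lies past the line, at -1.73 and -1.76, and removal of the trend brings Nova2 and Srrm4 close to or above 0.

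Ptbp2, the neuronal paralog of Ptbp1, had 15690 and 16547 reads in siControl and 4671 and 5972 in siArglu1. Both siArglu1 libraries were far below both siControl libraries, although siArglu1 Dex was the deepest of the 4. The scaled level fell by 1.73 on the log2 scale in vehicle (interval -1.77 to -1.68) and fell by 1.76 in Dex (-1.80 to -1.72), to 30.2% and 29.5% of siControl. With the length trend removed the ratios were -1.66 and -1.73. Only 127 of the 12497 genes had a lower ratio in vehicle and 81 in Dex. Its paralog Ptbp1 had 52044, 56004, 43969 and 61623 reads. The ratio of Ptbp1 was -0.22 in vehicle (-0.24 to -0.20) and -0.15 in Dex (-0.17 to -0.13), under the size rule, with -0.18 and -0.14 once the length trend was removed. Ptbp1 was therefore 3.59 and 3.67 times as abundant as Ptbp2 per kilobase in siControl Veh and Dex, and 10.2 and 11.2 times in siArglu1 Veh and Dex.

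The 34-nt exon of Ptbp2 was the event of these genes with the largest difference in splicing. It is exon 10 of the 14 exons of the annotated transcript Ptbp2-213, and the files place it at chr3:119427530-119427563 of mm9, on the minus strand. Its counterpart in Ptbp1, exon 9 of 13 in Ptbp1-206, lies at chr10:79324759-79324792 of mm9, on the plus strand. The bases were read from GENCODE M21 transcripts (GRCm38, chr3:119724612-119724645 and chr10:79862014-79862047), in which the exons were recognised by gene, exon length and the lengths of both flanking introns. They are shown 5′ to 3′ with the exon in capitals and the 20 flanking bases of the neighbouring exons in lower case, because these are the sequences whose inclusion the next values describe.
Ptbp2 34-nt exon: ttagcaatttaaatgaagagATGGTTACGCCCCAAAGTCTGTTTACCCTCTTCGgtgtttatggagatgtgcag
Ptbp1 34-nt exon: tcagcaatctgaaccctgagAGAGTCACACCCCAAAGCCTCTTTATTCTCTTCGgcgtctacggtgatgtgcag

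The exons are identical at 26 of 34 bases (76.5%), marked here by capitals.
Ptbp2 identity: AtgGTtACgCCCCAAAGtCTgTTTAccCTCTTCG
Ptbp1 identity: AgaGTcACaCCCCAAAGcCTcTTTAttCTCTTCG

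The length of 34 is not a multiple of 3, so skipping shifts the reading frame. In Ptbp2-213 the frame holds 531 codons before the stop with the exon. Without it the frame ends after 356 codons, at a TGA whose last base is 27 bases past the new junction and 361 bases before the last exon junction. In Ptbp1-206 the frame holds 529 codons with the exon and 353 without, and the new stop has the same distances of 27 and 361 bases. The joined sequence is shown from 20 bases before the junction to the new stop codon, in capitals, because the Ptbp2 form took a larger share in siArglu1, with that of Ptbp1 beside it for comparison.
Ptbp2 without the exon: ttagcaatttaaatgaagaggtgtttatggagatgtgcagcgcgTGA
Ptbp1 without the exon: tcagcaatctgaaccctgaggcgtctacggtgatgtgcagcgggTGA

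Inclusion is given as percent spliced in (PSI), the percent of transcripts that contain the exon as the authors' software estimated it from junction reads. The PSI of the Ptbp2 34-nt exon was 90.33 and 89.77 in siControl and 62.15 and 44.52 in siArglu1. The siControl libraries were nearly equal and both siArglu1 libraries were lower, the Dex one the lowest of the 4. Knockdown lowered it by 28.18 PSI in vehicle and by 45.25 PSI in Dex, past the threshold of 15 PSI in each. Of 32984 cassette exons and microexons compared, 51 fell further in vehicle and 4 in Dex. Among the 17184 of them with the best coverage score in all 4 libraries, 14 fell further in vehicle and 0 in Dex. The exon had the best score in every library, which for alternative splice sites stands for at least 100 junction reads. Whether the score has the same meaning for cassette exons is not known. If 100 reads are assumed, the exact binomial 95% intervals are 82.4 to 95.1 in each siControl library, 51.7 to 71.5 in siArglu1 Veh and 35.0 to 55.3 in siArglu1 Dex. The siArglu1 intervals do not reach those of siControl, and they overlap each other.

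Dex changed the PSI of this exon by -0.56 in siControl cells and by -17.63 in siArglu1 cells, and the latter is past the threshold. The difference between these effects was not tested. The level of Ptbp2 did not follow the further fall in PSI: its log2 ratio of Dex over vehicle was -0.056 in siArglu1 (-0.11 to -0.00076) and -0.023 in siControl (-0.054 to 0.0087). When the cRPKM is multiplied by the PSI, the form with the exon comes to 64.7 and 62.9 cRPKM in siControl and to 13.2 and 9.27 in siArglu1. The form without it comes to 6.93 and 7.17 cRPKM in siControl and to 8.01 and 11.6 in siArglu1. In siArglu1 the form with the exon was thus at 20.3% of siControl in vehicle and 14.7% in Dex, and the form without it at 116% and 161%. This division takes the PSI as exact and assumes that reads along the gene represent both forms equally.

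**Figure D3:**
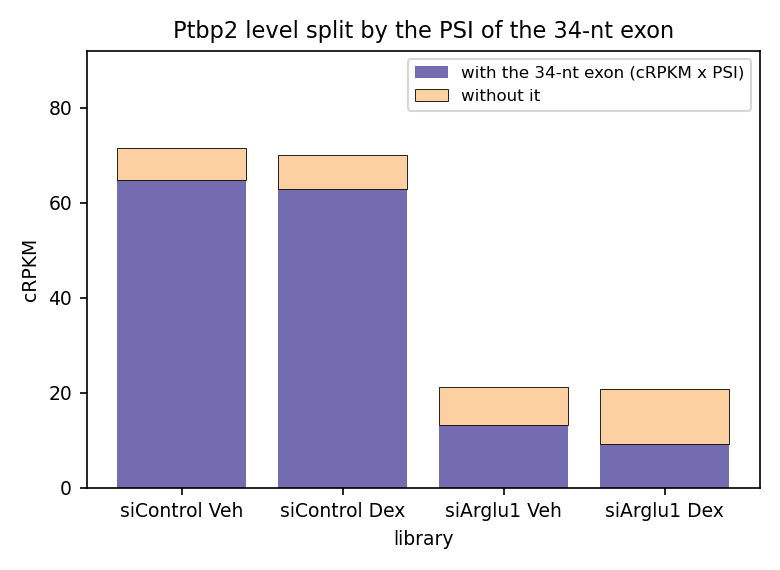
Level of Ptbp2 (bar height, cRPKM) in the 4 libraries, split by the PSI of the 34-nt exon into transcripts with the exon (lower part) and without it (upper part). The lower part shrinks from 64.7 and 62.9 to 13.2 and 9.27, whereas the upper part goes from 6.93 and 7.17 to 8.01 and 11.6.

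The split bars of Ptbp2 show that, by this division, the level that was lower in siArglu1 was that of the form with the exon, not that of the form without it. These are levels of RNA present, and how much of either form was made or decayed was not measured. The homologous exon of Ptbp1 had a PSI of 99.31 and 98.80 in siControl and of 97.58 and 97.09 in siArglu1. All 4 libraries were close to full inclusion, and the differences of -1.73 and -1.71 PSI with knockdown were under the threshold. The coverage score of this exon was very low in siControl Veh and low in siControl Dex, in spite of the abundance of Ptbp1, while it was the best score in both siArglu1 libraries. None of the 9 compared events of Ptbp1 differed by more than 1.73 PSI with knockdown in vehicle or 1.71 in Dex. No 78-nt event of Ptbp1 was listed. A 78-nt cassette exon of Ptbp2, exon 13 of 14 in Ptbp2-213, had a PSI of at least 98.65 in all libraries. This exon was found by its length, and it was not matched to any exon of Ptbp1.

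Further events of Ptbp2 moved in the same pairs without reaching 15 PSI. A 165-nt exon (chr3:119450708-119450872, mm9), whose length keeps the frame (476 codons without it), had a PSI of 98.43 and 97.28 in siControl Veh and Dex, and of 87.81 and 82.77 in siArglu1 Veh and Dex. Its differences were -10.62 and -14.51 PSI. The authors class this event among those with complex reads, and its reads were scored as unbalanced in every library. Only 1 flanking intron matched the transcript. The codon count therefore rests on an annotated upstream junction that differs from the one measured. An alternative 3′ splice site adds 15 nt to the front of the 140-nt exon, which in the transcript lies directly before the 34-nt exon. The added bases are shown in capitals between the preceding exon and the shorter form of the exon, as Ptbp2-202 has them (GRCm38, the longer exon at chr3:119726066-119726220).
Ptbp2 15-nt extension: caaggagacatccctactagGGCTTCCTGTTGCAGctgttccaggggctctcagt

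Use of the extending site was 21.55% on 362 junction reads and 20.58% on 379 in siControl and 35.21% on 71 and 31.80% on 94 in siArglu1. Both siArglu1 values were higher, by 13.66 and 11.22 PSI. The intervals of 17.4 to 26.1 and 24.2 to 47.5 in vehicle overlap at their ends, as do those of 16.6 to 25.01 and 22.7 to 42.3 in Dex. The other 8 cassette exons of Ptbp2 differed by between -1.19 and 1.57 PSI with knockdown in vehicle and between -2.46 and 0.37 in Dex.

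**Figure D4:**
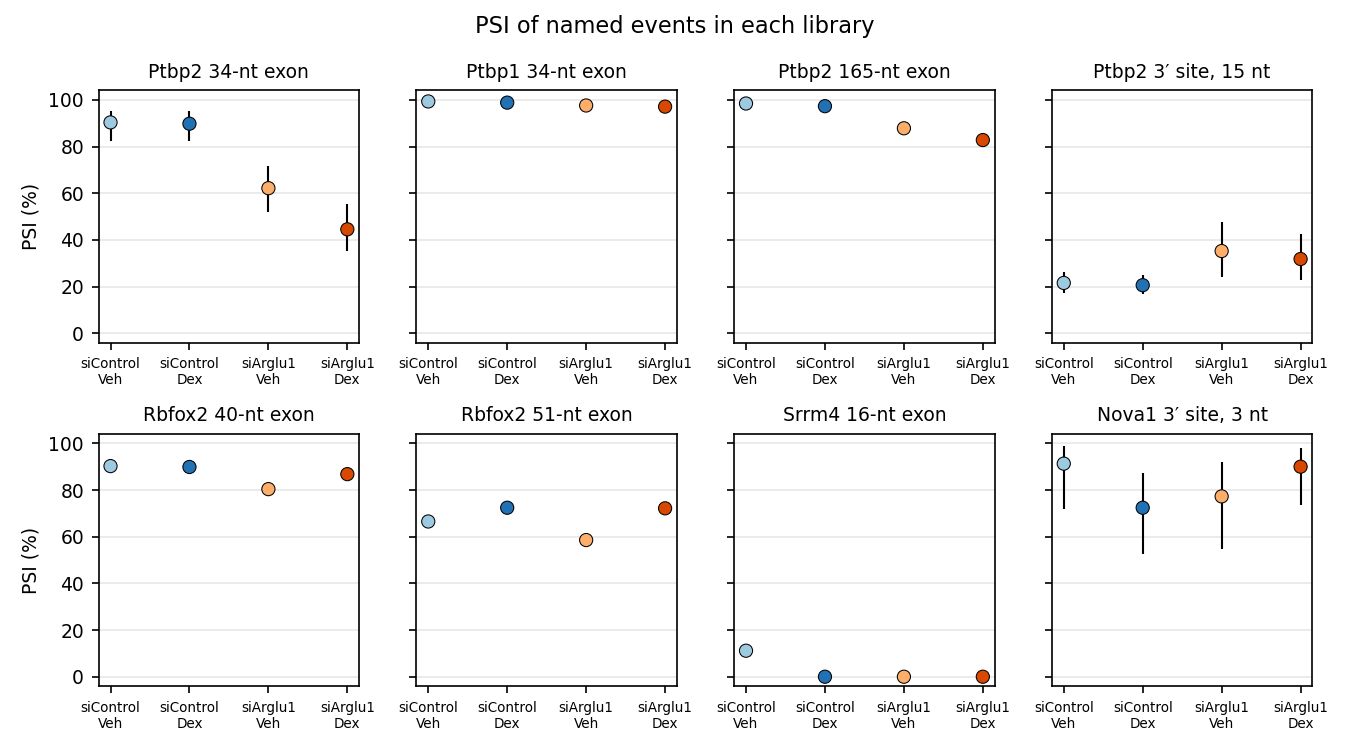
PSI (percent) of 8 events in the 4 libraries, 1 panel per event and 1 point per library. Vertical lines are exact binomial 95% intervals, drawn for the alternative 3′ sites from their junction reads and for the Ptbp2 34-nt exon with 100 assumed reads. The Ptbp2 34-nt exon falls from about 90 in siControl to 62.15 and 44.52 in siArglu1, the Ptbp1 34-nt exon stays above 97, and the 4 intervals of the Nova1 site overlap.

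The activators of microexons, Srrm3 and Srrm4, stayed under the size rule in both knockdown pairs. Srrm3 had 2671 and 3140 reads in siControl and 2415 and 3453 in siArglu1, and its knockdown ratio was -0.12 in vehicle (-0.20 to -0.043) and -0.15 in Dex (-0.22 to -0.082). The scaled level was 91.8% and 90.0% of siControl, and with the length trend removed the ratios were 0.013 and -0.093, so the direction in vehicle depended on this choice. Srrm4, the best known driver of neuronal microexons, had 3855, 3972, 3124 and 5262 reads. Its ratio was -0.28 in vehicle (-0.35 to -0.21) and 0.12 in Dex (0.057 to 0.18), 82.3% and 108% of siControl, and after removal of the length trend it was 0.14 and 0.32. The pairs thus gave opposite signs for Srrm4, and the sign in vehicle turned with the length trend. By the authors' label, which is given to exons of at most 15 nt, the 4 compared cassette exons of Srrm3 and Srrm4 held no microexon. The 79-nt exon of Srrm3 had a PSI of 22.22 and 23.16 in siControl and 25 and 24.29 in siArglu1. A 16-nt exon of Srrm4 was at 11.15 in siControl Veh and at 0 in the other 3 libraries, where its coverage score was low, very low and OK.

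Of the RBFOX genes, Rbfox2 carried nearly all reads. It had 20257 and 20456 reads in siControl and 11641 and 15658 in siArglu1. The ratio was -0.78 in vehicle (-0.81 to -0.74) and -0.67 in Dex (-0.70 to -0.64), under the size rule, which put its level at 58.4% and 62.7% of siControl. Removal of the length trend brought the ratio to -0.39 and -0.48. Rbfox1 had 401, 368, 235 and 291 reads, and its wide intervals contained the threshold: -0.75 in vehicle (-0.99 to -0.51) and -0.63 in Dex (-0.85 to -0.40). Removal of the length trend changed these to -0.60 and -0.56. Per kilobase, Rbfox2 was 29.1, 32.2, 28.5 and 30.9 times as abundant as Rbfox1 in the 4 libraries, and the siControl and siArglu1 values of this ratio overlapped.

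Rbfox2 has a 40-nt and a 43-nt exon that are alternatives to each other between the same neighbouring exons, the former known from brain and the latter from muscle. They are shown with the exon in capitals and 20 bases of each neighbouring exon in lower case (minus strand; GRCm38, chr15:77094451-77094490 and chr15:77091812-77091854), because their ratio tells a neural from a muscle pattern.
Rbfox2 40-nt exon: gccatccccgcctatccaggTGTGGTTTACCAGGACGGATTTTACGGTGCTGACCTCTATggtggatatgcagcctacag
Rbfox2 43-nt exon: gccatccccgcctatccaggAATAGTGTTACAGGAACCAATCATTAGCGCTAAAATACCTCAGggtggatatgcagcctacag

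The 40-nt exon had a PSI of 90.25 and 89.87 in siControl and 80.38 and 86.80 in siArglu1, and the 43-nt exon 1.51, 1.11, 1.89 and 0.30. All libraries therefore held mainly the form with the 40-nt exon. Its difference of -9.87 PSI in vehicle was the largest of the 13 compared events of Rbfox2 and was not matched in Dex (-3.07 PSI). A 51-nt exon was at 66.52, 72.41, 58.56 and 72.15, lower in siArglu1 Veh than in the other libraries. An alternative 3′ site that adds 12 nt was used at 46.89%, 45.83%, 49.74% and 48.94%, close to even use in every library. The 93-nt exon, which encodes part of the RNA-binding domain and whose skipping gives a form known to act as a dominant negative, was at 98.18, 95.83, 98.25 and 97.89. The 12 events of Rbfox1 and the 6 of Rbfox3 had too few reads to be compared.

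The NOVA genes, at nearly equal levels in siControl, had different knockdown ratios, and the interval of Nova1 lay below that of Nova2 in both pairs. Nova1 had 3704 and 3928 reads in siControl and 2101 and 2807 in siArglu1. Its ratio was -0.80 in vehicle (-0.87 to -0.72) and -0.77 in Dex (-0.84 to -0.70), 57.6% and 58.5% of siControl, and both intervals contain the threshold of 0.81. With the length trend removed it was -0.40 and -0.58. Nova2 had 4518, 4935, 3097 and 5466 reads, with a ratio of -0.52 in vehicle (-0.59 to -0.46) and of -0.14 in Dex (-0.20 to -0.086). Removal of the length trend brought Nova2 to -0.039 and 0.10, so its direction in Dex depended on this choice. The level of Nova1 over that of Nova2 per kilobase was 1.03 and 1 in siControl and 0.853 and 0.647 in siArglu1.

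The 72-nt exon of Nova1, which NOVA1 is known to repress in its own transcript, was included at a PSI of 100, 99.03, 100 and 100. It is shown because this exon, exon 4 of 5 in Nova1-201, marks the autoregulation of the gene (minus strand; GRCm38, chr12:46713498-46713569), with the exon in capitals.
Nova1 72-nt exon: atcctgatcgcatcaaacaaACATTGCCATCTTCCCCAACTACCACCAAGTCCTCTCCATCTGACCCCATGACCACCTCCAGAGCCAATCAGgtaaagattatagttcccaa

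A 3′ splice site that adds 3 nt to another exon of Nova1 was used at 91.30% on 23 junction reads and 72.41% on 29 in siControl and 77.27% on 22 and 90.00% on 30 in siArglu1. It passed 15 PSI for knockdown in Dex (17.59 PSI higher) and for Dex in siControl (18.89 PSI lower), comparisons that share siControl Dex. The 4 exact intervals, from 71.96 to 98.9, 52.8 to 87.3, 54.6 to 92.2 and 73.5 to 97.9, all overlap. The reads were few, overlap of intervals is not a test, and no difference is read from these values. A 53-nt exon of Nova1, mostly skipped, was at 6.26 and 6.13 in siControl and at 10.53 and 12.53 in siArglu1. The 3 compared events of Nova2 differed by at most 1.55 PSI with knockdown in vehicle and 3.06 in Dex.

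Over all 9 genes, 47 of the 70 events could be compared, of 57183 in the whole tables. With knockdown, 1 of the 47 passed 15 PSI in vehicle and 2 in Dex, against 1.96% and 1.52% of all events. The event called in both pairs was the 34-nt exon of Ptbp2, and the second in Dex was the 3-nt site of Nova1. With Dex, 1 event passed in siControl and 1 in siArglu1, against 0.719% and 0.948% of all events. Differences under 5 PSI were found for 40 of 47 events in vehicle and 41 in Dex (85.1% and 87.2%), where 87.9% and 89.2% of all events were under 5 PSI. These shares are near those of the tables as a whole, so they say nothing particular about the regulators as a group.

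**Figure D5:**
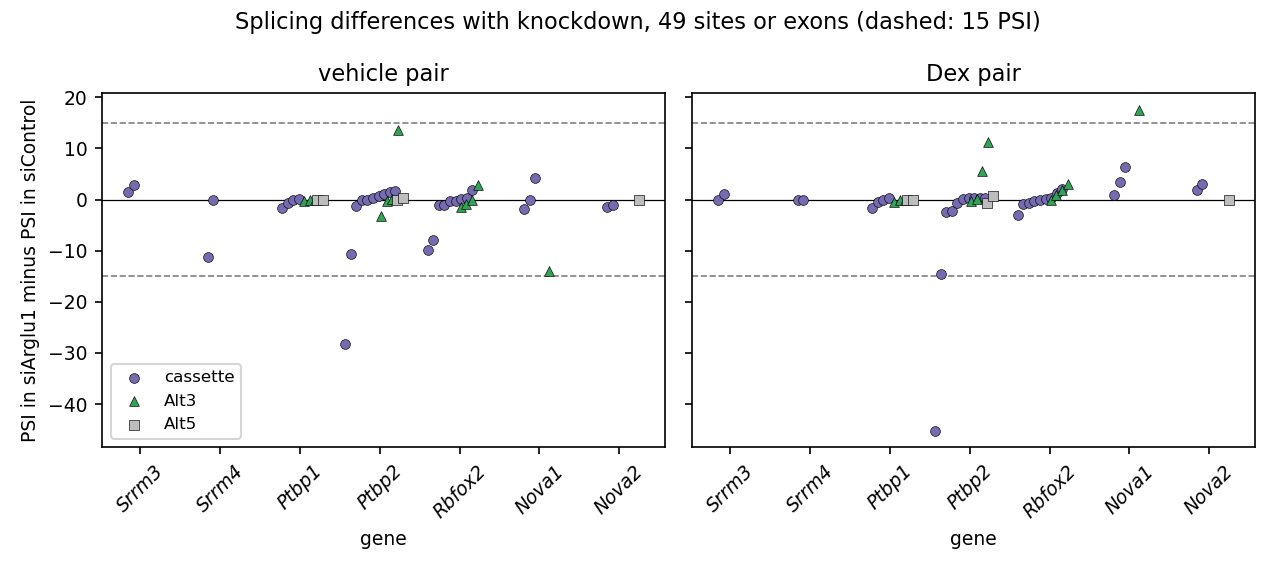
PSI in siArglu1 minus PSI in siControl for the 49 exons and alternative sites of the 47 compared events (reference sites left out), by gene, in the vehicle pair and the Dex pair. Circles are cassette exons, triangles alternative 3′ sites and squares alternative 5′ sites; dashed lines mark 15 PSI. The 34-nt exon of Ptbp2 lies lowest in both panels, at -28.18 and -45.25.

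The plot of differences by gene shows the events of Ptbp1, Rbfox2, Nova2, Srrm3 and Srrm4 inside the dashed lines in both pairs. In expression, no regulator passed the size rule for Dex, a log2 ratio of 1, in either siControl or siArglu1, where 0.464% and 0.4% of the genes did. In siControl cells the ratios of Dex over vehicle ran from -0.22 for Rbfox1 to 0.13 for Srrm3. In siArglu1 cells they ran from -0.10 for Rbfox1 to 0.41 for Nova2 (0.34 to 0.47), and Srrm4 followed with 0.34 (0.28 to 0.41). The Dex ratio in siArglu1 exceeded that in siControl by 0.38 for Nova2 and by 0.40 for Srrm4, and these differences were not tested. Over all genes the Dex ratio in siArglu1 rose with transcript length (Spearman's rho of 0.543 across genes), and with that trend removed the ratios were 0.21 for Nova2 and 0.17 for Srrm4.

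A model with terms for knockdown and Dex, fitted to all 4 libraries, has 1 residual degree of freedom. Its spread comes from the agreement between the pairs, moderated by that of all genes. The libraries are pools, so its adjusted p-values do not measure the spread between cultures. By edgeR's quasi-likelihood test with Benjamini-Hochberg adjustment over all genes, 5 of the 8 regulators passed an adjusted p of 0.05 for knockdown, which is close to the 61.6% of all genes that did. Ptbp2 had a log2 fold change of -1.74 (edgeR adjusted p = 1.1e-82), lower in 2 of 2 pairs. Nova1 followed with -0.78 (2.0e-17), Rbfox2 with -0.73 (9.3e-16), Rbfox1 with -0.69 (3.6e-07) and Nova2 with -0.33 (4.0e-04), all adjusted p of the same edgeR test. Ptbp1 (-0.19, edgeR adjusted p = 0.069), Srrm3 (-0.14, 0.17) and Srrm4 (-0.080, 0.43) did not pass. DESeq2's Wald test passed 5 of 8 as well, where 48% of all genes passed. Neither model holds a term for transcript length. With the length trend removed, the knockdown ratios of Nova2 were -0.039 in vehicle and 0.10 in Dex.

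The genes whose pattern over the 4 libraries was most like that of Ptbp2, by the Euclidean distance between centred log2 CPM among 10855 genes, were Etl4 (distance 0.077), Bmi1, a Polycomb gene (0.079), and Vsig1, of the immunoglobulin superfamily (0.082). Their knockdown ratios were -1.78, -1.65 and -1.64 in vehicle and -1.67, -1.70 and -1.72 in Dex. Other splicing factors and partners of the regulators formed a list of 20 symbols, of which 16 could be compared. It holds Ptbp3, Matr3 and Raver1 beside the PTBP proteins, Srrm1, Srrm2, Srsf10, Srsf11 and Rnps1 beside the SRRM proteins, and Rest and Rcor1, of the repressor complex that keeps Srrm4 low outside neurons. By the size rule, 1 of 16 was lower in both pairs, where 5.07% of all genes compared were, and 0 were higher. This was Rcor1, with 7281 and 7223 reads in siControl and 2630 and 3866 in siArglu1, and ratios of -1.45 and -1.19. The median ratio of the list was -0.39 in vehicle and -0.38 in Dex, where that of all genes compared was 0.0038 and 0.0031. The length trend was not removed from these ratios, and nothing particular to the list is read from them.

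A list of 43 genes holds known targets of the 4 families, and 35 of them had cassette exons or microexons that could be compared. All 275 such exons were counted, whether or not they are known to be regulated. Knockdown lowered 15 of them (5.45%) by at least 15 PSI in vehicle and 14 (5.09%) in Dex, 10 of them in both, and raised 7 and 3. Of all 32984 cassette exons and microexons, 1.37% and 1.03% were lowered, 164 in both pairs, and 337 and 283 were raised. The list was made of genes with known regulated exons, and nothing particular to it is read from these shares. By family, 6 of 44 exons of PTBP targets were lowered in vehicle and 3 in Dex, 4 and 5 of 94 for SRRM4, 2 and 2 of 59 for NOVA, and 3 and 4 of 78 for RBFOX. Microexons are those with the authors' label, of at most 15 nt, and all longer exons are counted as cassette exons. Among microexons, 3 of 12 in the target genes were lowered in each pair, the same 3 in both. Of 309 microexons of all genes, 32 were lowered in vehicle, 31 in Dex and 23 in both. In vehicle 1 of the 12 was raised, a 12-nt microexon of Ank3 with a PSI of 17.13, 31.45, 50.37 and 26.38 and the lowest coverage score (N) in siArglu1 Veh. These 4 are named after their values were seen. A 15-nt microexon of Vav2, a guanine nucleotide exchange factor, had a PSI of 69.41 and 73.98 in siControl and 43.18 and 51.30 in siArglu1. Another 15-nt microexon of Vav2 stood at 71.62, 62.35, 48.61 and 41.58. A 12-nt microexon of Agrn, which encodes the organiser of the neuromuscular synapse, was at 30.95, 34.30, 9.03 and 8.22. In each of the 3 that were lowered, both siArglu1 libraries were below both siControl libraries, an order that their choice by a fall in each pair makes likely.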

How the data were processed

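The authors counted reads per gene with Bowtie on mm9, as the submitters' processing notes name them, and estimated splicing with vast-tools, with tool versions not given in the sources used here. Raw read counts stand in the deposited expression table beside the authors' RPKM corrected for mappability (cRPKM), with 2 unnamed columns of the authors' Dex over Veh ratios, which were not used. The deposited splicing tables hold PSI, a percent, with a coverage score in words and, for alternative sites, junction reads. The authors' score classes N, VLOW, LOW, OK and SOK began at 0, 10, 20, 40 and 100 junction reads for alternative sites, and may be set differently for cassette exons.

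Reads of 12497 genes with at least 75 reads summed were scaled with TMM (edgeR 4.0.16, R 4.3.3), and log2 CPM took a prior count of 1. The size rule was 0.81 for knockdown and 1 for Dex. Trends on mappable length were removed by lowess (span 0.3). An event was compared if every library had a PSI and at least 3 were scored LOW or better, and it passed at 15 PSI. Sites of an event counted once. Exons were matched to GENCODE M21 transcripts by gene, length and flanking introns (34 of 48 cassette exons by both introns). Fits by edgeR and DESeq2 were alternatives.

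All 9 genes are named, with events past 15 PSI, the largest knockdown difference of a gene and exons known from textbooks; partners are named if past the rule in both pairs, and for Ptbp2 the 3 most similar genes with at least 500 reads. Members and lists were chosen with earlier results of these data known. Scripts were tested on simulated data. Pooled cultures leave the spread between cultures unknown.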

Additional observations from a re-analysis of the deposited data

Results flagged for a closer look

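Srrm4 moved in opposite directions with knockdown, and this set it apart for a closer look. Its log2 ratio of siArglu1 over siControl was -0.28 in vehicle and 0.12 in Dex, pairs that share no library and have 1 library on each side. The difference between the pairs was not tested, since no group has replicates, and both values were under the size rule of 0.81. With the trend on transcript length removed they were 0.14 and 0.32.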

How the results depend on the processing

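No paired analysis was possible because each group has 1 library, so the groups share no second replicate number and none can be left out. Of the log2 ratios of single regulators recomputed under 6 other settings, 171 stayed within the interval of the reported value, 21 left it and 0 of those past the size rule turned sign. Removal of the length trend accounted for 16 of the 21. Ptbp2 stayed past 0.81 in both pairs under each of these settings.

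The number of regulators past the size rule for knockdown in vehicle, 1 as reported, was 3 with library totals in place of TMM factors, 2 with the deposited cRPKM and 5 at a threshold of 0.5. In Dex it was 1 as reported and 4 at 0.5. The additive edgeR and DESeq2 models each passed 5 for knockdown in place of the 1 that met the size rule in both pairs. For splicing, 1 event passed with knockdown in vehicle, and 5 passed without a coverage minimum and 5 at 10 PSI. With knockdown in Dex, 2 passed, against 1 with a score of OK in all libraries, 6 without a minimum, 4 at 10 PSI and 1 at 25 PSI. With Dex in siControl, 1 passed, against 0 with OK in all, 6 without a minimum, 2 at 10 PSI and 0 at 25 PSI. With Dex in siArglu1, 1 passed, against 5 without a minimum, 3 at 10 PSI and 0 at 25 PSI. The cause of these shifts was not tested beyond the change of threshold itself.

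Without the minimum on reads, the genes past the size rule among all genes went from 1971 to 4318 for knockdown in vehicle, from 1514 to 3728 in Dex, from 58 to 1847 for Dex in siControl and from 50 to 1352 for Dex in siArglu1. The deposited cRPKM gave 29 and 23 for Dex. Rbfox1, at 235 to 401 reads, and Rbfox3, at 1 read, were limited by depth, as were all events of both genes.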
